A study of Mus musculus with 16 samples.

Results

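Pdx1 and the Onecut family are transcription factors of the embryonic pancreas, and the alleles of this study remove 1 copy of Pdx1, 1 copy of Onecut1, or both. The genes described here are Pdx1, Onecut1, Onecut2 and Onecut3, chosen by symbol: all 4 are among the 22869 genes counted, and 3 of them are among the 2283 genes of the authors' deposited table of comparisons. Whole RNA from the pancreas of mouse embryos at day 15.5 was sequenced in 4 control, 4 Pdx1LacZ/+ (Pdx1 heterozygous), 3 Oc1+/- (Oc1 heterozygous) and 5 Pdx1LacZ/+;Oc1+/- (double heterozygous) libraries. All groups were on a mixed background. Oc1 is the protein name for the product of Onecut1, also known as HNF6, and LacZ is a reporter placed at the Pdx1 gene. Neither allele is described as limited to a cell type in the labels, which do not say which exons it removes or whether libraries come from separate litters.

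Values per library were not analysed here, because the 16 columns of the count table are named by flow cell, lane and index, and no label ties these to a sample. The results rest on the log2 fold changes, p-values and adjusted p-values of the authors' deposited table. No standard deviation between libraries is available, the read depth behind each value is unknown, and which libraries carry a difference was not tested. An interval below is a 95% interval computed from the fold change and its p-value. A gene is called where its adjusted p is under 0.05.

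As background, Pdx1 is a homeodomain factor of the ParaHox family, made first in the early pancreatic and duodenal epithelium and later at high level in beta cells, where it activates insulin transcription. Onecut factors bind DNA through a cut domain next to a homeodomain. Onecut1 is made in pancreatic progenitors and later in ducts and acinar cells; it acts upstream of Neurog3, the factor that commits progenitors to the endocrine lineage, and helps to start Pdx1 transcription. Onecut2 overlaps with Onecut1 in the embryonic pancreas and is also made in neurons, as is Onecut3.

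The promoters of the 2 genes whose alleles were altered are shown first, because the comparisons ask how much transcript these genes gave and whether each factor's dose moved the other's transcript. Both come from RefSeq's promoters and were matched by symbol, as 2 of the 4 genes. The 250 bases before the annotated start lie at chr5:147269847-147270096 for Pdx1 and at chr9:74861671-74861920 for Onecut1 (GRCm38.p6, plus strand for both), a newer build than the mm9 named for the counts. Capitals mark the E box CACGTG, the sequence that USF factors, known regulators of Pdx1, bind.
Pdx1: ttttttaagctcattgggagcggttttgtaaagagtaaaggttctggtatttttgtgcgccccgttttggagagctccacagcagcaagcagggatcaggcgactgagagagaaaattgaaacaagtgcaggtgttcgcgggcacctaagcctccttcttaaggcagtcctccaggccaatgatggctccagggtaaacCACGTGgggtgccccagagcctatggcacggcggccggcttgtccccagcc
Onecut1: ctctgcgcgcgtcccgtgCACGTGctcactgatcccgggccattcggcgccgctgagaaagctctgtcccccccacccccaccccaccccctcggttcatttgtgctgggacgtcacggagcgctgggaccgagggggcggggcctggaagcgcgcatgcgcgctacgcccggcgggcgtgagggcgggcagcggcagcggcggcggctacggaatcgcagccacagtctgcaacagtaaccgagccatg

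Each promoter held 1 E box, beginning 51 bases before the start in Pdx1 and 232 bases before it in Onecut1. The same letters were found in 7.15% of 32851 promoter windows of 300 bases. On either strand, neither window held the Onecut motif spelled ATCAAT (in 7.54% of windows) or ATCGAT (0.925%), nor the homeodomain motif TAATTA (5.29%). These are letter matches in a short window and say nothing of binding. The sequences shown end at the RefSeq start, but the 300-base windows searched for these motifs and shares run past it. In the bases before the start alone, the shares were 6.02% for CACGTG, 6.72% for ATCAAT, 0.728% for ATCGAT and 4.84% for TAATTA. GENCODE places the start of Pdx1 138 bases upstream of the RefSeq start, inside the sequence shown.

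Nearly all reads of the family members could be told apart by sequence. Transcripts of Onecut1 and Onecut2 shared no run of 30 bases. Onecut3 shared 21 of its runs of 30 bases with Onecut1 and 23 with Onecut2, under 1% of either. A run of 50 bases was shared once, between Onecut1 and Onecut3. On the same strand as Onecut1, the annotated lincRNA Gm20649, which is not among the genes counted, covers 52.8% of the exonic bases of Onecut1, so the reads of the 2 cannot be told apart over that length.

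One label names pancreatic progenitors as the source and another the pancreas, and genes of mature lineages were abundant. Acinar Cpa1 and Gcg, the glucagon gene, stood at a mean of 12.55 and 10.09 log2 CPM (counts scaled to the size of the library) per the authors' deposited table, and Ins2 and Neurog3 at 7.61 and 6.75. In the Oc1 heterozygotes 9 of 10 acinar and 4 of 6 beta cell markers were higher than in control, where 3.74% of all genes were listed as higher. There 3 of 5 mesenchyme, 3 of 8 neuronal and 2 of 5 endocrine progenitor markers were lower, where 2.73% of genes were listed as lower. Of the neuronal markers 1, Ret, was higher. In the double heterozygotes 5 of 6 beta cell markers and 4 of 7 liver markers were lower, where 0.617% of genes were. So were 4 of 5 endocrine progenitor markers, 1 of 4 alpha cell markers (Gcg) and 1 of 2 delta cell markers (Sst), with none higher. These are bulk samples, so fewer cells of a type and less RNA per cell cannot be told apart.

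Pdx1 transcript was lower wherever the LacZ allele was present. Its mean over the libraries was 5.89 log2 CPM per the authors' deposited table, or 59.2 CPM. From this mean and the authors' fold changes, the level was estimated at 73.3 CPM in control, 67.6 CPM in Oc1 heterozygotes, 52.8 CPM in Pdx1 heterozygotes and 48.1 CPM in double heterozygotes. The order therefore ran from control to double heterozygotes, and the test did not separate control from Oc1 heterozygotes or Pdx1 from double heterozygotes.

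In the Pdx1 heterozygotes Pdx1 stood at 72.0% of control (interval 62.7 to 82.7%), a log2 fold change of -0.47 with adjusted p = 0.00427 per the authors' deposited table. Of 22869 genes at least 72, or 0.315%, were called in that comparison, and Pdx1 ranked at most 19th by p-value. In the double heterozygotes it stood at 65.7% of control (57.6 to 74.9%), a log2 fold change of -0.61 with adjusted p = 5.03e-07 per the authors' deposited table. There it ranked at most 17th, and at least 1.07% of genes were called. The level of 50% that 1 of 2 equal copies would give lies below both intervals. The labels do not say which exons the LacZ allele removes, so how much of its transcript is counted as Pdx1 is unknown. The part of cell composition in these values was not tested.

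The Oc1 allele alone did not move Pdx1 past the threshold. The Oc1 heterozygotes stood at 92.3% of control (79.5 to 107.1%), with adjusted p = 0.586 per the authors' deposited table, while at least 15.1% of genes were called. Adding the Oc1 allele to the Pdx1 allele gave 91.2% of the Pdx1 heterozygous level (79.9 to 104.1%; adjusted p = 0.929 per the authors' deposited table). Both intervals hold 100% and reach down to 79.5 and 79.9%. Averaged over both Pdx1 backgrounds, a contrast added after these values were seen, the Oc1 allele left 91.7% of Pdx1 (83.1 to 101.3%; unadjusted p = 0.0892, adjusted p = 1).

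The same calculation for the Pdx1 allele gave nearly the same decrease in either Oc1 background. With both Oc1 copies, Pdx1 was lower by 0.47 on the log2 scale, and with 1 Oc1 copy, double against Oc1 heterozygotes, by 0.49 (71.2%, interval 61.7 to 82.1%; adjusted p = 0.000118, derived from the authors' deposited table). The interaction of the 2 alleles, the difference between these changes, was -0.02 (interval -0.30 to 0.27; adjusted p = 1). Averaged over both backgrounds, Pdx1 stood at 71.6% (64.8 to 79.1%; adjusted p = 4.35e-08). The single heterozygotes also differed directly, with Pdx1 heterozygotes at 78.0% of Oc1 heterozygotes (67.3 to 90.6%; adjusted p = 0.0151 per the authors' deposited table, where at least 11.2% of genes were called).

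**Figure D1:**
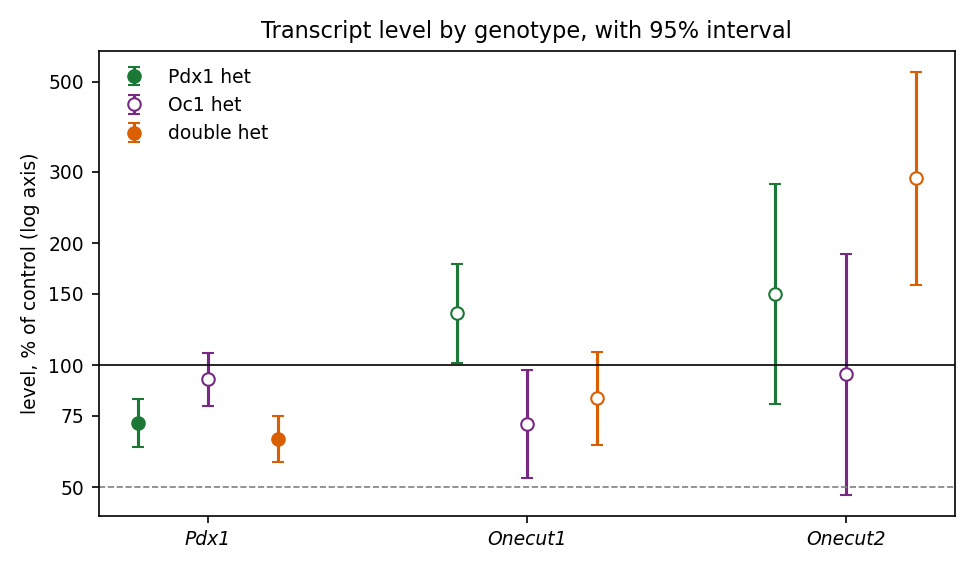
Level of Pdx1, Onecut1 and Onecut2 in each heterozygous genotype as a percentage of control, on a log axis, with 95% intervals computed from the authors' p-values; filled points have an adjusted p under 0.05. The solid line is control and the dashed line 50%; the Pdx1 intervals of the 2 genotypes with the LacZ allele lie between these lines, and that of Onecut2 in the double heterozygotes, from 157.9 to 528.3%, lies above control.

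Onecut1 transcript, in contrast, was called different between mutant genotypes but not against control. Its mean was 4.96 log2 CPM per the authors' deposited table, or 31.1 CPM. The estimated levels were 42.7 CPM in Pdx1 heterozygotes, 31.8 CPM in control, 26.4 CPM in double heterozygotes and 22.8 CPM in Oc1 heterozygotes. Control thus lay between the Pdx1 heterozygotes above it and the 2 carriers of the Oc1 allele below it, and no neighbours in this order were separated by the test.

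Against control, Onecut1 stood at 71.7% in Oc1 heterozygotes (interval 52.7 to 97.4%; unadjusted p = 0.0333, adjusted p = 0.146 per the authors' deposited table). It stood at 82.8% in double heterozygotes (63.4 to 108.0%; adjusted p = 0.954 per the authors' deposited table). The Pdx1 heterozygotes stood at 134.1% (101.3 to 177.5%; unadjusted p = 0.0404, adjusted p = 0.828 per the authors' deposited table). None of the 3 was called, and these comparisons share the control libraries.

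Of the 3 comparisons between mutant genotypes 2 were called for Onecut1; the third, double against Oc1 heterozygotes, differed by 0.21 (adjusted p = 1, derived). Double heterozygotes had 61.7% of the Onecut1 transcript of Pdx1 heterozygotes (interval 47.4 to 80.4%), with adjusted p = 0.0319 per the authors' deposited table, its sign turned. At least 1.35% of genes were called in that comparison, in which Onecut1 ranked at most 255th. Pdx1 heterozygotes had 187.1% of the level of Oc1 heterozygotes (137.3 to 254.8%; adjusted p = 0.00191 per the authors' deposited table). Onecut1 ranked at most 862nd there, where at least 2556 genes were called.

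The Oc1 allele was thus compared with its absence in separate libraries on each Pdx1 background. The log2 difference in Onecut1 was -0.48 with 2 normal Pdx1 copies and -0.70 with 1, and the interaction was -0.22 (interval -0.80 to 0.37; adjusted p = 1). Averaged over both backgrounds, carriers of the Oc1 allele had 66.5% of the Onecut1 transcript (54.3 to 81.5%; adjusted p = 0.00442, derived, where at least 3.56% of genes were called). This mean was added after the separate values were seen. The lower bound of 54.3% lies above 50%, whereas the interval within the Pdx1 heterozygous background alone holds 50%. The reads may include those of Gm20649, and the labels do not say which exons the Oc1 allele removes.

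The effect of the Pdx1 allele on Onecut1 had the opposite sign. Onecut1 was at 134.1% with 2 normal Oc1 copies and, double against Oc1 heterozygotes, at 115.5% with 1 (interval 86.2 to 154.7%; unadjusted p = 0.334). Averaged over both Oc1 backgrounds, the Pdx1 allele went with 124.4% of Onecut1 (101.5 to 152.5%; unadjusted p = 0.0351, adjusted p = 0.655, derived), which was not called.

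**Figure D2:**
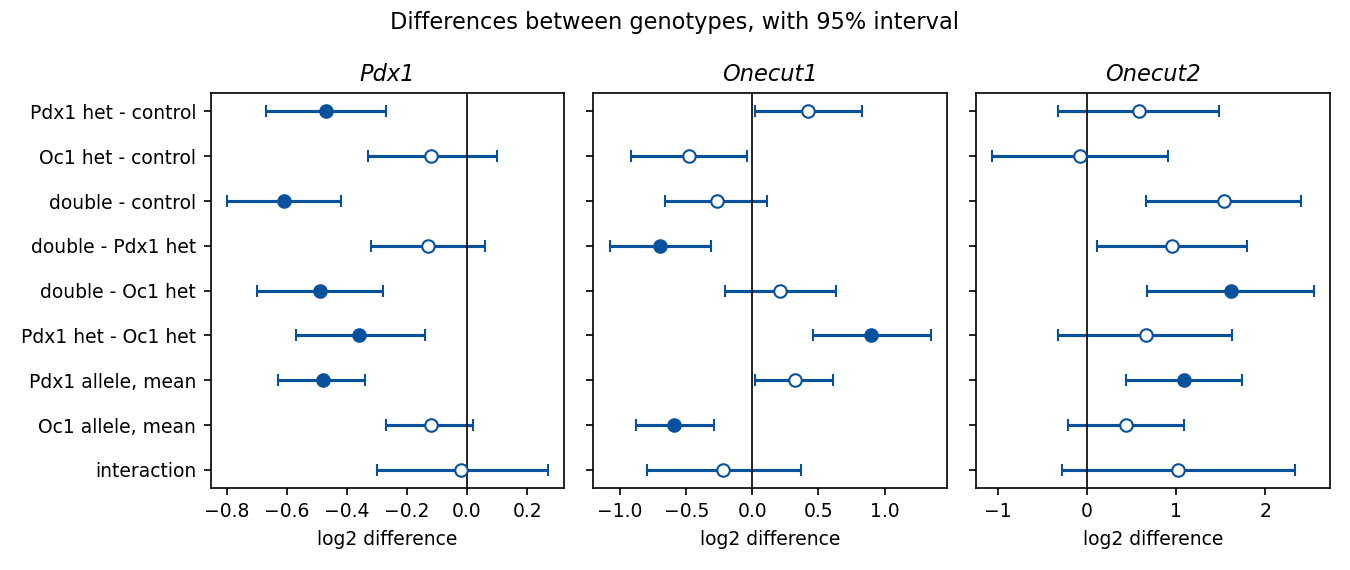
Log2 differences of Pdx1, Onecut1 and Onecut2 for the comparisons between genotypes, the mean effect of each allele over both backgrounds of the other, and their interaction, with 95% intervals; filled points have an adjusted p under 0.05, and each panel has its own scale. Intervals of the interaction include 0 for all 3 genes (-0.02, -0.22 and 1.02).

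Onecut2, the family member that overlaps with Onecut1 in the early pancreas, was scarce and had the highest estimated level in the double heterozygotes. Its mean was 1.35 log2 CPM per the authors' deposited table, or 2.55 CPM. Estimated levels were 1.5 CPM in control, 1.42 CPM in Oc1 heterozygotes, 2.24 CPM in Pdx1 heterozygotes and 4.32 CPM in double heterozygotes. The double heterozygotes stood at 288.8% of control (interval 157.9 to 528.3%), a log2 fold change of 1.53 with adjusted p = 0.0533 per the authors' deposited table. This is just outside the threshold of 0.05 and within 0.1, at which 0.94% of genes also changed by at least 1.5-fold. Among the 5 deposited comparisons it is the 1 in which Onecut2 met the apparent rule for being listed, an adjusted p under 0.1 with a fold change of at least 1.5.

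Neither single heterozygote differed from control in Onecut2 by the test. The Pdx1 heterozygotes stood at 149.7% (80.2 to 279.5%) and the Oc1 heterozygotes at 94.9% (48.0 to 187.6%), both with adjusted p = 1 per the authors' deposited table. The double heterozygotes stood at 192.9% of the Pdx1 heterozygotes (107.6 to 345.8%; adjusted p = 0.468 per the authors' deposited table, its sign turned). They stood at 304.3% of the Oc1 heterozygotes (159.1 to 581.9%; adjusted p = 0.0159, derived), where at least 5.58% of genes were called; with a t instead of a normal quantile the adjusted p was 0.0545. Averaged over both Oc1 backgrounds the Pdx1 allele went with 213.4% of Onecut2 (135.9 to 335.1%; adjusted p = 0.0447, or 0.11 with the t quantile). The interaction was 1.02 (interval -0.28 to 2.33; unadjusted p = 0.123). Neuronal markers, whose cells also make Onecut2, showed 0 of 8 called between double heterozygotes and control, with 6 listed and Stmn2 at -0.04 per the authors' deposited table. Onecut2 was listed through double heterozygotes against control alone. The derived calls above reuse that double heterozygous group and are not separate support. At this low level, whether a single library carries the difference was not tested.

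Onecut3 was counted but is not in the comparison table. It was therefore taken not to have reached both an adjusted p below 0.1 and 1.5-fold in any of the 5 comparisons; no value or direction is given for it.

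The factors known to act on the Pdx1 gene were next compared. Of 14 such genes, all counted, 6 were listed. In the double heterozygotes at least 3 were lower than control and none higher, where 0.617% of all genes were listed as lower and 0.188% as higher. Mafa, an activator of insulin and Pdx1, stood at -1.57 per the authors' deposited table (adjusted p = 2.76e-05). Pax6, a factor of endocrine cells, stood at -0.64 per the authors' deposited table (adjusted p = 7.31e-06). Neurod1, which follows Neurog3, stood at -0.41 per the authors' deposited table (adjusted p = 0.0338). Beta cell genes were lower in the same comparison (5 of 6 markers, with Ins1 at -2.36 per the authors' deposited table), and their part in these values was not tested.

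In the Pdx1 heterozygotes 0 of the 14 were called, where at least 0.315% of genes were. Of the 6 listed, Foxa1, Onecut1 and Mafa had an unadjusted p under 0.05 there by the authors' edgeR test. In the Oc1 heterozygotes 1 of 14 was called, where 3.74% of genes were listed as higher and 2.73% as lower. Ptf1a, a factor of progenitors and later of acinar cells, was higher by 0.84 per the authors' deposited table (adjusted p = 0.000203), beside 9 of 10 acinar markers higher. Hnf4a, Foxa2, Sox9, Nkx2-2, Isl1, Rbpj, Sp1 and Usf1 were not listed in any comparison.

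Foxa1 stood out by size but not by test in the Pdx1 heterozygotes. It was at 2.31 against control per the authors' deposited table (adjusted p = 0.289), at a mean of only -0.43 log2 CPM. The double heterozygotes were lower than the Pdx1 heterozygotes in Foxa1 by 2.72 on the log2 scale per the authors' deposited table (adjusted p = 0.0238). Among 10 markers of duodenum and stomach 1, Lgals4, was called higher in the Pdx1 heterozygotes (3.52, adjusted p = 0.00936 per the authors' deposited table). Of the other listed markers Cdx1 stood at 3.21, Cldn18 at 1.19, Tff2 at 0.98, Vil1 at 0.24, Sox2 at 0.12 and Gkn2 at -3.60 per the authors' deposited table, none of them called; Fabp2, Tff1 and Cdx2 are not listed. Their part in the Foxa1 value was not tested.

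Of all genes counted 9.98% are listed. Of 20 partners and cofactors of Pdx1, among them the partners Meis1, Meis2 and Pknox1, the chromatin proteins Smarca4, Chd4 and Ep300, and Spop, which binds Pdx1, 1 was listed. This was Neurod1. In the double heterozygotes it was lower than in the Pdx1 heterozygotes by 0.59 on the log2 scale (adjusted p = 9.43e-05 per the authors' deposited table). All others were taken not to have passed 1.5-fold with an adjusted p under 0.1 in any deposited comparison.

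Known targets of Pdx1 were called in 1 direction in the double heterozygotes, lower than control. Of 17 genes, all counted, 12 were listed, and 9 were lower than control with none higher (0.617% of all genes were listed as lower). The 12 listed genes stood at a median of -0.85 log2, where all listed genes stood at 0.05; the list holds Pdx1 itself, and being listed required a difference somewhere. Ins1, Ins2 and Iapp, the insulin genes and the islet amyloid peptide gene, stood at -2.36, -2.18 and -1.92 per the authors' deposited table. Glp1r, the incretin receptor, stood at -1.20 per the authors' deposited table (adjusted p = 0.0485). Pdx1 at -0.61 had the smallest of the 9 called changes. Of the others, Ins1, Ins2, Iapp and Mafa are also among the beta cell markers. Pax4 and Neurog3 are among the endocrine progenitor markers, and Sst is a delta cell marker. The part of cell composition in these values was not tested.

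In the Pdx1 heterozygotes, with Pdx1 at 72.0% of control, 2 of these 17 genes were called, against 0.214% of all genes listed as higher and 0.0656% as lower. They were Pdx1 itself and Slc2a2, the beta cell glucose transporter, which was higher (0.70, adjusted p = 0.0321 per the authors' deposited table). Glp1r stood at -1.18 there (adjusted p = 0.163 per the authors' deposited table), at a mean of 0.5 log2 CPM. Among the Oc1 heterozygotes 6 were higher and 2 lower, where 3.74% of all genes were listed as higher and 2.73% as lower. Sst, the somatostatin gene, and Cela1, an elastase gene, stood at 1.01 and 1.48 per the authors' deposited table (adjusted p = 0.00245 and 7.04e-10). Pax4 and Neurog3, factors of endocrine progenitors, stood at -0.93 and -0.65 per the authors' deposited table (adjusted p = 0.000787 and 0.00269).

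The Pdx1 allele was also followed across both Oc1 backgrounds for these targets. Double against Oc1 heterozygotes, 8 of 17 were lower and none higher, where 3.27% of genes were listed as lower and 2.31% as higher. Against the Pdx1 heterozygotes 6 of 17 were lower and none higher, with 0.722% and 0.271% of all genes listed so. Between the single heterozygotes, Pdx1 against Oc1, 2 were higher and 9 lower, with 2.59% and 3.14% of all genes listed so. In double against Oc1 heterozygotes Ins1 and Ins2 differed by -3.28 and -3.08 (adjusted p = 1.25e-40 and 2.32e-45, derived from the authors' deposited table), while Pdx1 differed by -0.49. In that comparison the difference for Neurog3 was -0.10 (adjusted p = 1) and for Pax4 it was 0.21 (adjusted p = 1). The interaction was called lower for 6 of the 17 targets and higher for none, where 4.72% of genes were called, 3.03% lower and 1.69% higher. In the mean over both Oc1 backgrounds, in which 2.3% of genes were called for the Pdx1 allele, 7 of the 17 were lower and none higher, with 1.3% and 0.997% of genes so. For the Oc1 allele 3 were lower and 1 higher, with 1.38% and 2.19% of genes so. Ptf1a, 1 of the 17, could not be tested in double against Oc1 heterozygotes, the interaction or the means, and counts as not called.

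Known targets of Onecut1 were compared next. In the Pdx1 heterozygotes 1 of 17 such genes was called higher and 1, Pdx1, lower, where 0.214% and 0.0656% of all genes were listed so. Against control, 2 were lower in the double heterozygotes, Pdx1 and Neurog3 (-0.75, adjusted p = 0.00025 per the authors' deposited table), and none higher. There 0.617% of all genes were listed as lower and 0.188% as higher. Of the 17, all counted, 8 were listed, and in the Oc1 heterozygotes 2 were lower and 1 higher, where 2.73% and 3.74% of all genes were listed so and at least 15.1% were called in either direction. The lower genes were Neurog3 (-0.65) and Bicc1 (-0.30, adjusted p = 0.026 per the authors' deposited table). The higher was Tff2, a trefoil peptide gene (1.76, adjusted p = 0.000777 per the authors' deposited table). Bicc1 was higher in Pdx1 than in Oc1 heterozygotes by 0.60 (adjusted p = 4.49e-07 per the authors' deposited table), as Onecut1 was. Cys1, a cilia gene, was higher in the Pdx1 heterozygotes than in control (0.68, adjusted p = 0.00476 per the authors' deposited table). Sox9, Prox1, Pkhd1 and Spp1, genes of the duct and trunk epithelium, were not listed. Of 9 duct and trunk markers 2, Krt18 and Muc1, were higher in the Oc1 heterozygotes and 7 were not listed.

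**Figure D3:**
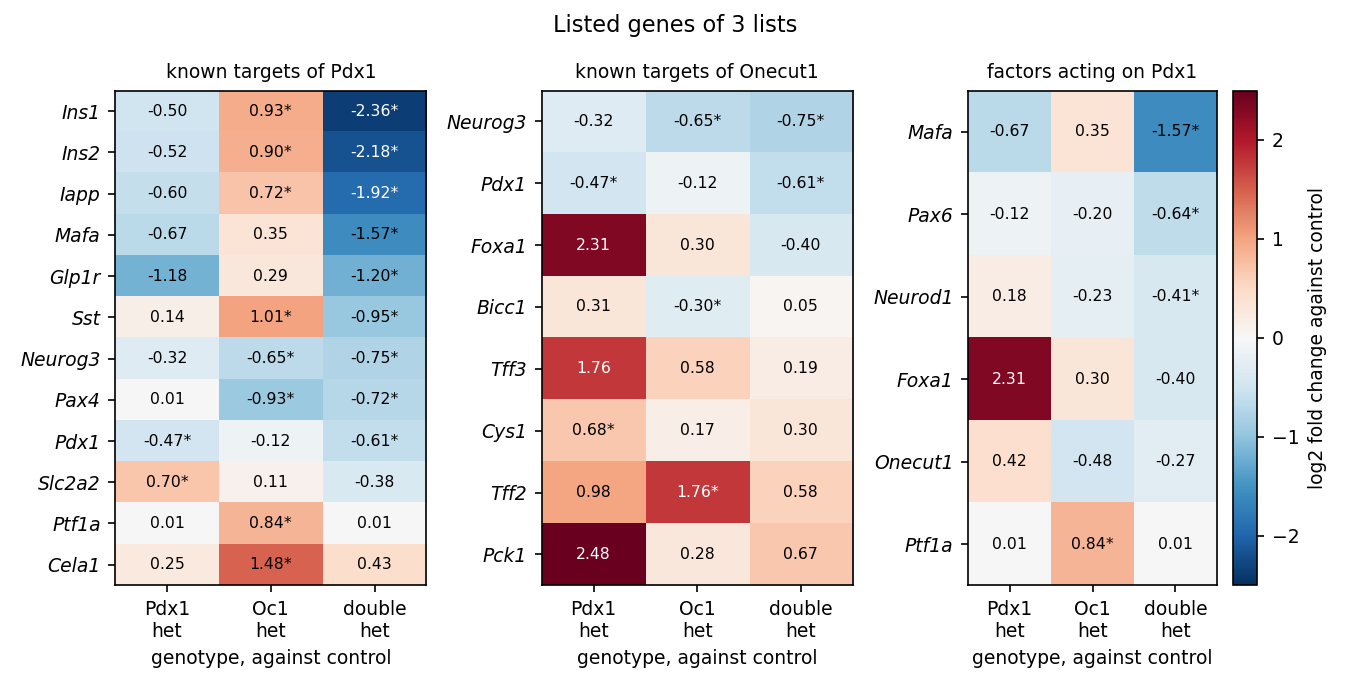
Log2 fold change against control, as numbers and colour, of the listed genes among known targets of Pdx1, known targets of Onecut1 and factors that act on the Pdx1 gene, in each heterozygous genotype; a star marks an adjusted p under 0.05 per the authors' deposited table. The double heterozygous column of the Pdx1 targets runs from -2.36 for Ins1 to 0.43 for Cela1.

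Of 17 progenitor and trunk factors 4 were listed. In the double heterozygotes 1 was lower and 1 higher, where 0.617% and 0.188% of all genes were listed so. Mnx1, a homeodomain factor of early pancreas and beta cells, was lower in the double heterozygotes by 1.44 on the log2 scale, and Nkx6-2 was higher by 0.73 (adjusted p = 1.61e-07 and 0.0138 per the authors' deposited table). Among 9 other cut, SATB and ParaHox homeodomain genes 3 were listed, and in the Oc1 heterozygotes 1 was lower and 1 higher, where 2.73% and 3.74% of genes were listed so. There Satb1, a chromatin organizer with cut-like domains, stood at -0.59 and Gsx1, a ParaHox relative of Pdx1 at a mean of -2.99 log2 CPM, at 4 (adjusted p = 0.00195 and 0.0322 per the authors' deposited table). Gsx1 also stood at 3.64 in the Pdx1 heterozygotes, which was not called (adjusted p = 0.478 per the authors' deposited table). Pdx1 against Oc1 heterozygotes, it differed by only -0.36. Cux1, Cux2 and Cdx2 were not listed.

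Genes with the pattern most like that of Pdx1 were sought among the 1608 other listed genes at or above 1 in mean log2 CPM. Likeness was the Euclidean distance over the 3 log2 fold changes against control. The nearest was Gfra3, a receptor of the GDNF family, at a distance of 0.155, with -0.32, -0.12 and -0.64 in Pdx1, Oc1 and double heterozygotes. Next came Nnat, an imprinted gene of endocrine cells (0.169), Spock2 (0.185), Zswim5 (0.197) and Gpr98 (0.209). H2-Q2, Gdnf, Trf, Atp2a3 and Gcg completed the 10, at up to 0.282. Pdx1 alone of these 11 genes was called in the Pdx1 heterozygotes. Of the 10 neighbours 9 were called lower in the double heterozygotes, where 0.617% of all genes were listed as lower. The exception was H2-Q2 (adjusted p = 0.0823 per the authors' deposited table). The neighbours were sought among listed genes and by these same values, so this count largely follows from how they were chosen.

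The genes most like Onecut1 had the same alternation, above control in Pdx1 heterozygotes and below it in the other genotypes. Car12, a carbonic anhydrase gene, was nearest (distance 0.091; 0.34, -0.52 and -0.25 in Pdx1, Oc1 and double heterozygotes). Then followed Pou3f4, a POU homeodomain factor (0.16), Slco3a1 (0.167), Sox10, a factor of neural crest and glia (0.167), and Fam181b (0.178). Col9a3, Pamr1, St8sia3, Miat and Diras2 completed the 10, at up to 0.229. In the Oc1 heterozygotes 4 of these 10 were called lower, Slco3a1, Fam181b, Col9a3 and Pamr1, where 2.73% of all genes were listed as lower. This count too rests on genes chosen for a low value there. None of the 10 was called in the Pdx1 or double heterozygotes.

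**Figure D4:**
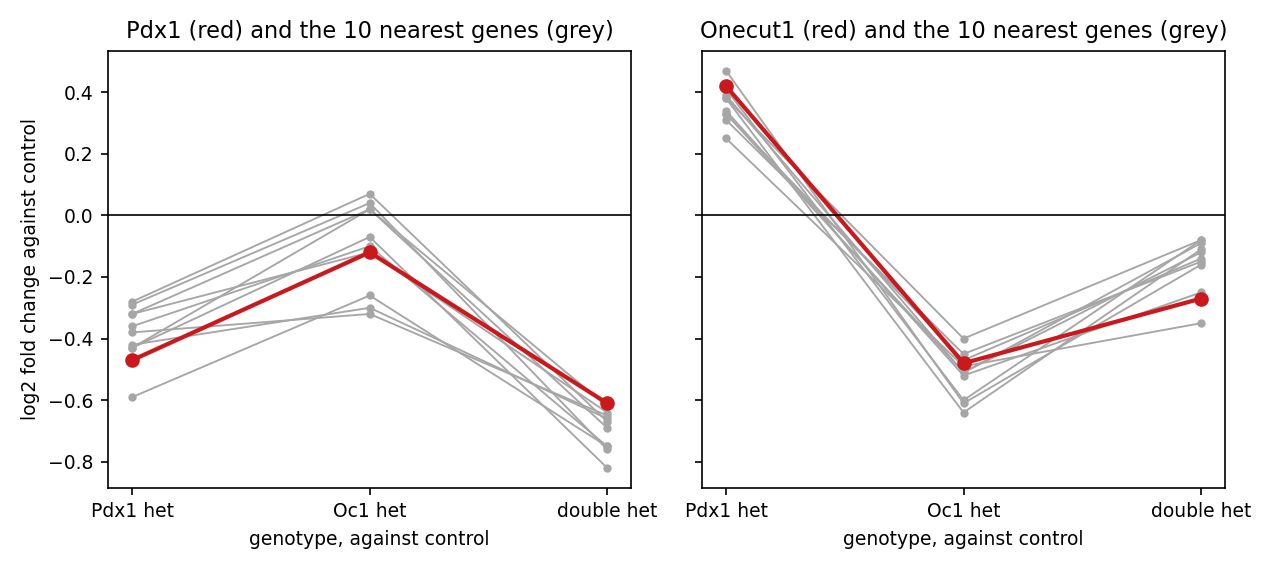
Log2 fold change against control in the 3 heterozygous genotypes for Pdx1 and Onecut1 (red) and, in grey, the 10 listed genes nearest to each; points are the authors' values and lines join the values of a gene. The grey genes were chosen by closeness to these values, so each set follows its red gene. The Pdx1 set is lowest in the double heterozygotes (-0.61 for Pdx1). The Onecut1 set is highest in the Pdx1 heterozygotes and lowest in the Oc1 heterozygotes (0.42 and -0.48 for Onecut1).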

How the data were processed

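Libraries came from a TruSeq RNA kit and Trizol-stored pancreas, per the labels' protocols. Tools named in the submitters' processing notes are edgeR, with which the authors' p-values were taken to be made, and CASAVA 1.8.2, and the build is mm9; the aligner and the version of edgeR are not given in the sources used here. Per the file headers, the authors' deposited table gives 5 blocks of log2 fold change, mean log2 CPM, p-value and adjusted p; the adjusted values fit Benjamini-Hochberg over 22869 genes. The 16 count columns were not used, since no label ties them to a sample. The edgeR fits planned for them were not run. For the same reason depth and precision per library are not given.

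In 8 rows values shifted by 1 column were moved back. The heading of block 4 names double against Pdx1, but all 2275 rows with values held block 1 less block 3, and the sign was therefore reversed. Under a heading of double against Oc1, block 5 held block 1 less block 2 in all 2279 rows (tolerance 1e-06) and was read as Pdx1 against Oc1 heterozygotes. Variances of blocks 2 to 5 relative to block 1 (medians 1.147, 0.905, 0.897 and 1.144, mean log2 CPM above 4) lie nearer those from the group sizes as headed (1.167, 0.9, 0.9 and 1.167) than with the single heterozygotes exchanged (0.857, 0.771, 0.914 and 1).

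The standard error of a log2 change was recovered from its p-value through the normal distribution. It was not recovered where the p-value was 0.9 or more, which left Ptf1a without derived p-values. Double against Oc1 heterozygotes, the interaction and the mean allele effects are sums of the authors' fold changes with two-sided normal p-values. These were adjusted over 22869 genes with unlisted genes set to 1. The derivation was run on simulated data whose p-values were normal by construction. That run could not check whether the authors' p-values can be treated as normal. The number called is a lower bound: from ranks implied by the adjusted p for the deposited comparisons, and over listed genes for the derived. A listed gene had an adjusted p under 0.1 and at least 1.5-fold in some block, so counts in lists are lower bounds too. Estimated CPM per genotype come from the authors' mean and fold changes. P-values measure the spread between libraries, which may be technical.

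The members, lists and tests were chosen with earlier results of these data known. Named genes are the members, list genes called or listed, and the 10 nearest in pattern; some genes of the lists are not reported here and are left out of the list counts. Python 3.11.15, pandas 2.3.3 and SciPy 1.17.1 were used.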

Additional observations from a re-analysis of the deposited data

Results flagged for a closer look

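Among the members and the genes of the lists, 9 had an interaction of the 2 alleles with an adjusted p under 0.05, derived from the authors' deposited table: the Pdx1 allele went with a different change when 1 Oc1 copy was missing. Of all genes counted 4.72% were called this way, and the Oc1 heterozygotes, which enter each interaction, stood far from control in many genes. The interaction was -2.79 for Ins1, -2.57 for Ins2, -2.03 for Iapp, -2.1 for Sst and -1.19 for Slc2a2 (adjusted p = 6.63e-14, 8.29e-15, 4.32e-09, 1.01e-06 and 0.000214). It was -1.29 for Cela1 and -2.16 for Tff2 (adjusted p = 0.000238 and 0.0044). For Satb1 it was 0.78 and for Gsx1, at a very low level, -6.21 (adjusted p = 0.00418 and 0.0071).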

How the results depend on the processing

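No paired analysis was possible because the count columns carry no replicate number, and the planned count fits (another normalization, another filter, leaving out replicates) were not run for the same reason. Requiring 1.5-fold ended the Pdx1 calls at -0.47 (Pdx1 heterozygotes), -0.36 (Pdx1 against Oc1 heterozygotes), -0.49 (double against Oc1 heterozygotes) and -0.48 (Pdx1 allele mean), leaving 0, 1, 1 and 1 members called; among the list counts 19 moved. An adjusted p under 0.1 added Onecut2 in double heterozygotes against control (1.53; 2 members called). A t quantile ended the derived Onecut2 calls at 1.61 and 1.09. With blocks 4 and 5 read as headed, double against Pdx1 heterozygotes reversed to 0.13, 0.70 and -0.95 for Pdx1, Onecut1 and Onecut2, and double against Oc1 heterozygotes became 0.90 for Onecut1 (called) and 0.66 for Onecut2 (not called). With the single heterozygotes exchanged, the Pdx1 heterozygotes would stand at -0.12, -0.48 and -0.08 and the Oc1 heterozygotes at -0.47, 0.42 and 0.58 for the 3 genes. Pdx1 against Oc1 heterozygotes would be 0.36, -0.90 and -0.66, double against Pdx1 heterozygotes -0.49, 0.21 and 1.61, and double against Oc1 heterozygotes -0.13, -0.70 and 0.95. The variance from either pair of blocks changed no member's call. Of the 10 genes nearest to Pdx1 and to Onecut1, 9 and 8 were shared under the largest absolute difference.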
